A study of Homo sapiens with 6 samples.

Results

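Translesion synthesis lets a replication fork copy past damaged bases that the replicative polymerases cannot read. RAD18, a ubiquitin ligase, marks the sliding clamp PCNA at a stalled fork, and the marked clamp recruits low-fidelity polymerases of the Y family. These are encoded by POLH (polymerase eta), POLI (polymerase iota), POLK (polymerase kappa) and REV1. Polymerase zeta then extends from the inserted base. Its catalytic subunit is encoded by REV3L and its accessory subunit REV7 by MAD2L2, and it shares further subunits with the replicative polymerase delta. Translesion synthesis is known for bypassing ultraviolet photoproducts, oxidised bases and bulky adducts, at the price of mutations. In B cells some of these polymerases take part in the somatic mutation of antibody genes.

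The 7 genes RAD18, POLH, POLI, POLK, REV1, REV3L and MAD2L2 were followed in RPMI 8226 cells, an established human multiple myeloma line of malignant plasma cell origin. They were chosen by name, out of 18417 genes with a value, as probe sets annotated to that gene alone. All 7 were measured, each by 1 probe set, and no filter on dim genes was applied. The unirradiated group had 3 arrays from cells given 0 Gy, and the irradiated group had 3 arrays from cells given 6 Gy of carbon ions, a densely ionising particle beam. Total RNA from both groups was taken 1 day after irradiation, and the groups differed by dose alone in the labels. The samples carry the numbers 1 to 3 within each dose, but nothing says whether they were separate cultures. The p-values therefore set a difference only against the spread among these samples, and that spread may be technical. A single cell line was used, so every value describes that line. The comparison addresses which transcripts differ 1 day after carbon ions, here for the genes of damage bypass.

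Array medians lay between 5.64 and 5.72 on the log2 scale, and the standard error (SE) of the difference had a median of 0.08 over all genes. Of 9 plasma cell markers, 7 lay above the array median on all 6 arrays, IRF4, PRDM1, XBP1 and MZB1 among them with means of 11.1 to 12.0 without irradiation, while CD27 (5.11) and SLAMF7 (4.63) lay below. The 4 T cell and 3 measured myeloid markers reached means of at most 5.42 and 4.80. Of the epithelial markers, EPCAM (10.5) and KRT18 (9.63) were high, and 1 of 4 fibroblast markers lay above the array median on every array. Summed on the linear scale, the plasma cell markers ran from 15218 to 15442 without irradiation and from 14015 to 14264 after it, the T cell markers from 103 to 121 and from 120 to 146, the myeloid markers from 58.0 to 68.0 and from 67.9 to 70.9, the epithelial markers from 2196 to 2414 and from 2030 to 2209, and the fibroblast markers from 176 to 179 and from 193 to 217. Single markers also changed, some by as much as the genes described below: SLAMF7 (0.55 on the log2 scale), COL3A1 (0.29) and COL1A1 (0.23) rose, and CD38 (-0.42), EPCAM (-0.39) and XBP1 (-0.23) fell, with limma adjusted p values from 0.0027 to 0.0405. The part of these shifts in the results below was not tested. In such bulk samples fewer cells of a kind and less RNA per cell cannot be told apart.

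After 6 Gy of carbon ions, 4 of the 7 genes changed and their directions were split by gene. POLH mRNA rose 1.20-fold, whereas POLI, REV1 and REV3L mRNA fell 1.34-fold, 1.35-fold and 1.32-fold. RAD18, POLK and MAD2L2 did not pass the test. A gene is called changed at a Benjamini-Hochberg adjusted p under 0.05 over all genes in limma, and that held for 14.5% of all genes tested. The share that rose was 6.35% and the share that fell was 8.18%, beside 1 and 3 of the 7 genes. The median log2 difference of the 7 was -0.15, beside 0.04 over all genes, and the size of the difference had a median of 0.26 beside 0.12. With each array left out in turn, between 1 and 3 of the 7 genes were called: 1 without unirradiated replicate 1, 2 without unirradiated replicate 2 or 3, 1 without irradiated replicate 1 or 2, and 3 without irradiated replicate 3. With array medians subtracted, 0 rose and 3 fell, where 976 of all genes rose and 1908 fell.

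The 4 genes that changed are shown here by sequence that lies before them. The array values say nothing about what binds there. RefSeq's GRCh38.p14 table gave 9 promoter windows for the 7 genes, with a second start for REV3L and for MAD2L2, and the 250 bases before each start were searched. The stretches below are the parts of those windows that lie outside the gene itself and outside any other protein-coding gene. They read 5′ to 3′ on the strand of the gene, and capitals mark GC boxes (GGGCGG) and the E2F-type motif TTTCCCGC on either strand. The POLH stretch is chr6:43576039-43576184 on the plus strand, between POLH and the oppositely placed gene XPO5. The POLI stretch is chr18:54269324-54269478 on the plus strand, from a window that a long non-coding RNA gene overlaps. The REV1 stretch is chr2:99490203-99490267 on the minus strand. The POLI and REV1 stretches stop short of the start that their window lies before. A GC box 7 bases before the REV1 start is therefore not shown. The REV3L stretch is chr6:111483712-111483961 on the minus strand, overlapped by the antisense RNA gene TRAF3IP2-AS1.
POLH: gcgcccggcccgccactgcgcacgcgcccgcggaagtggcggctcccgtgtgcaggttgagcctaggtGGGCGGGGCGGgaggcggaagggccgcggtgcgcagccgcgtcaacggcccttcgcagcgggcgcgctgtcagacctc
POLI: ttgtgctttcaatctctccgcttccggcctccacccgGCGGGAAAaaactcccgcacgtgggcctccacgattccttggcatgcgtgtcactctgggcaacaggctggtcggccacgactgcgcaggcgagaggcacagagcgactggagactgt
REV1: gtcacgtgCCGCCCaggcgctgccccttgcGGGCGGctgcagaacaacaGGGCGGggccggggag
REV3L: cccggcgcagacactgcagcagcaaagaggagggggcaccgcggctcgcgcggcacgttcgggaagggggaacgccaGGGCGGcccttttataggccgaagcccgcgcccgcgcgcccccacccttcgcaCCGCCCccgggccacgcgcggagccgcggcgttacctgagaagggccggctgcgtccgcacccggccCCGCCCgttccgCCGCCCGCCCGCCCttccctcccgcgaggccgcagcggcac

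The full windows of the 4 genes were richer in G and C than the median window, and they differed in the motifs they hold. GC content was 76.0% in the full 250-base window of POLH, 65.6% for POLI, 80.8% for REV1 and 78.4% for the first window of REV3L, where the median over 35116 windows in the table was 58.0%. GC boxes occurred in 8 of the 9 windows of the 7 genes and in 42.6% of all windows. By gene, 6 of the 7 had them: POLH had 3, REV1 had 4, the first REV3L window had 6, and POLI, which fell, had 0. Neighbouring GC boxes can overlap and were then each counted, as before POLH and in the first REV3L window. The counts are of full windows, and the POLH and REV1 stretches above show fewer. TTTCCCGC was found in 2 of the 9 windows, before POLI and in the second REV3L window, against 1.4% of all windows. The other E2F-type motif searched, TTTGGCGC (0.5% of all windows), and the cyclic AMP response element TGACGTCA (1.6%) had 0 matches before the 7 genes, and the CCAAT box (32.0%) matched once, in the second MAD2L2 window. Whether the motifs go with the direction of change was not tested. Genes that share a window were read for their own values, chosen for their position after the values of the 7 genes were seen. XPO5, which encodes the exporter of microRNA precursors and faces POLH head to head, differed by -0.15 ± 0.08 (SE; limma adjusted p 0.238), with the opposite sign to POLH. CERT1, which overlaps the POLK window and encodes a ceramide carrier, differed by 0.01 (adjusted p 0.966 in limma). DRAXIN, which overlaps the first MAD2L2 window and encodes a guidance protein of axons, differed by 0.26 (adjusted p 0.0993 in limma).

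**Figure D1:**
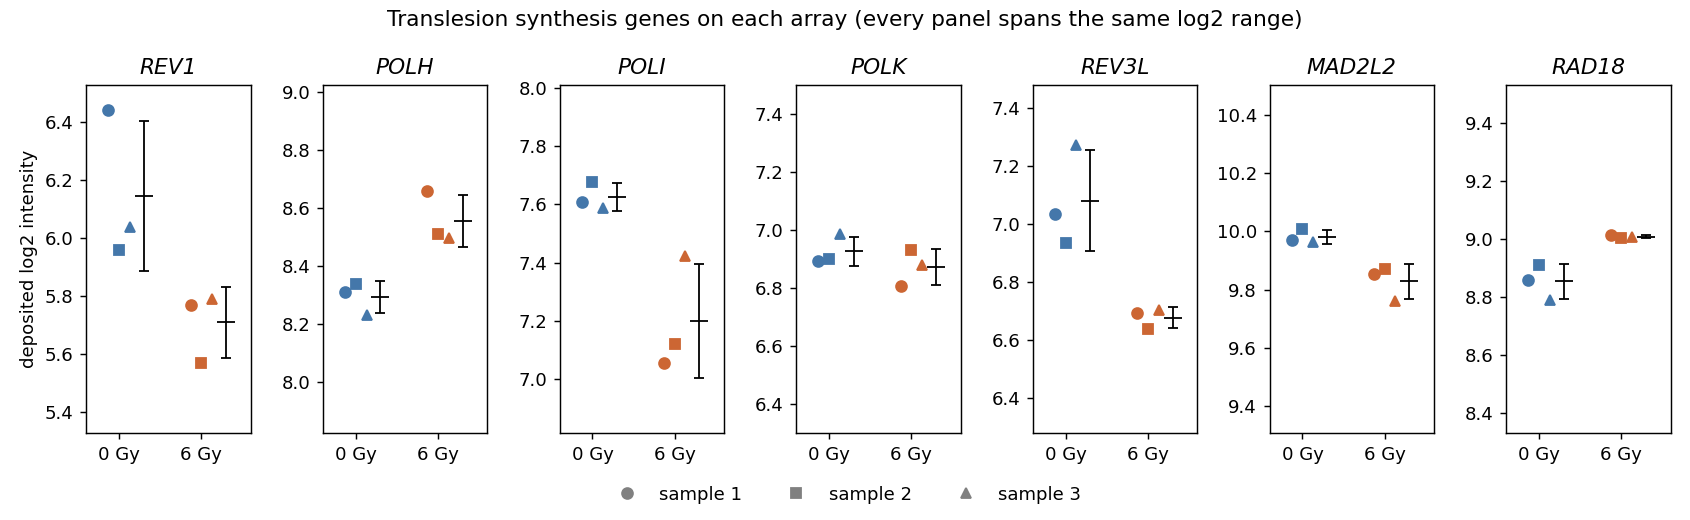
Each panel plots the deposited log2 intensity (y axis) of 1 gene on the 3 arrays at 0 Gy (blue) and the 3 at 6 Gy (orange), with a symbol for each sample number and the mean and SD of each group in black. The groups do not overlap for any gene except POLK, and POLI on irradiated replicate 3 (7.42) and REV1 on unirradiated replicate 1 (6.44) sit apart from the other arrays of their groups.

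POLH, whose polymerase copies accurately past ultraviolet-induced thymine dimers and is lost in the variant form of xeroderma pigmentosum, was the member that rose. Its log2 intensity was 8.31, 8.34 and 8.23 on unirradiated replicates 1 to 3 and 8.66, 8.51 and 8.50 on irradiated replicates 1 to 3. Every irradiated array was above every unirradiated array, with the largest value on irradiated replicate 1. The log2 difference was 0.26 ± 0.07 (SE, n = 3 and 3), with a 95% interval from 0.10 to 0.42 and a limma adjusted p of 0.0405. The limma call ended with any 1 of 5 arrays left out, with adjusted p values of 0.0964, 0.0844 and 0.120 without unirradiated replicates 1, 2 and 3 and 0.123 and 0.0619 without irradiated replicates 1 and 2. It also ended with array medians subtracted (difference 0.23, adjusted p 0.0691 in limma). The difference stayed positive in all 13 settings fitted, most of which could not reverse it. Several leave the difference as it was, and groups that do not overlap keep their order with an array left out.

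POLI encodes an unusually error-prone polymerase that can insert opposite a damaged template but copies undamaged thymine poorly. Its log2 intensity was 7.61, 7.68 and 7.59 on the unirradiated arrays and 7.05, 7.12 and 7.42 on the irradiated arrays. The unirradiated arrays lay close together, and irradiated replicate 3 lay nearer to them than to the other 2 irradiated arrays, without overlap. POLI fell by 0.43 on the log2 scale, with an SE of 0.10, a 95% interval from -0.64 to -0.21 and a limma adjusted p of 0.0175. Without irradiated replicate 3 the difference was -0.54 (adjusted p 0.00256 in limma). The call ended without unirradiated replicate 1 or 2 (limma adjusted p 0.0529 and 0.0660) and without irradiated replicate 1 or 2 (0.0563 and 0.0518).

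REV1 encodes a deoxycytidyl transferase that also serves as the docking platform on which the other Y-family polymerases meet polymerase zeta. Its log2 intensity was 6.44, 5.96 and 6.04 on the unirradiated arrays and 5.77, 5.57 and 5.79 on the irradiated arrays. This was the widest spread among the unirradiated values of the 7 genes (SD 0.26), set by the high value on replicate 1, and the groups still did not overlap. REV1 fell by 0.44 on the log2 scale, with an SE of 0.12, a 95% interval from -0.71 to -0.16 and a limma adjusted p of 0.0402. Without unirradiated replicate 1 the difference was -0.29 (adjusted p 0.0949 in limma). The call also ended without unirradiated replicate 3 (limma adjusted p 0.0607) and without irradiated replicates 1, 2 or 3 (0.0666, 0.109 and 0.0559), and was kept without unirradiated replicate 2 (0.0359).

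POLK encodes a polymerase that bypasses bulky adducts of guanine and extends mismatched ends, and it is the member of the Y family with no call. Its log2 intensity was 6.89, 6.90 and 6.99 on the unirradiated arrays and 6.81, 6.93 and 6.88 on the irradiated arrays, and the groups overlapped. The log2 difference was -0.05 ± 0.07 (SE; limma adjusted p 0.639), and its 95% interval ran from -0.21 to 0.10. That interval leaves out falls as large as the estimates for POLI, REV1 and REV3L, but it overlaps the 95% intervals of REV1 and REV3L. No test compared the members' differences with one another.

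REV3L, the catalytic subunit of polymerase zeta and essential in mouse embryos, had the smallest p of the 7 genes. Its log2 intensity was 7.03, 6.93 and 7.27 on the unirradiated arrays and 6.69, 6.64 and 6.70 on the irradiated arrays. The irradiated values lay within a narrow band (SD 0.04) below every unirradiated value, whose SD was 0.17. REV3L fell by 0.40 on the log2 scale, with an SE of 0.09, a 95% interval from -0.60 to -0.20 and a limma adjusted p of 0.0160. REV3L was called in all 13 settings, with adjusted p values in limma of 0.0080 to 0.0445, and its difference ran from -0.48 to -0.31. Of the 4 calls, that of REV3L was the one kept with each array left out in turn.

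MAD2L2 encodes REV7, which links REV3L to REV1 and also serves in the shieldin complex that protects broken DNA ends. Its log2 intensity was 9.97, 10.01 and 9.96 on the unirradiated arrays and 9.85, 9.87 and 9.76 on the irradiated arrays. All irradiated values were lower and the groups did not overlap, but the difference of -0.15 ± 0.07 (SE) did not pass (limma adjusted p 0.153). Its 95% interval ran from -0.30 to -0.01.

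RAD18, the ligase that attaches ubiquitin to PCNA together with the conjugating enzyme RAD6 (UBE2A or UBE2B), was at 8.86, 8.91 and 8.79 on the unirradiated arrays and 9.01, 9.00 and 9.00 on the irradiated arrays. The irradiated arrays gave nearly the same value (SD 0.0047) above every unirradiated array. The log2 difference was 0.15 ± 0.07 (SE), with a 95% interval from 0.01 to 0.30, and it did not pass (limma adjusted p 0.152). Of the 7 genes, 6 had groups that did not overlap, as did 34.7% of all genes, so the pattern of RAD18 and MAD2L2 is a common one in these arrays.

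**Figure D2:**
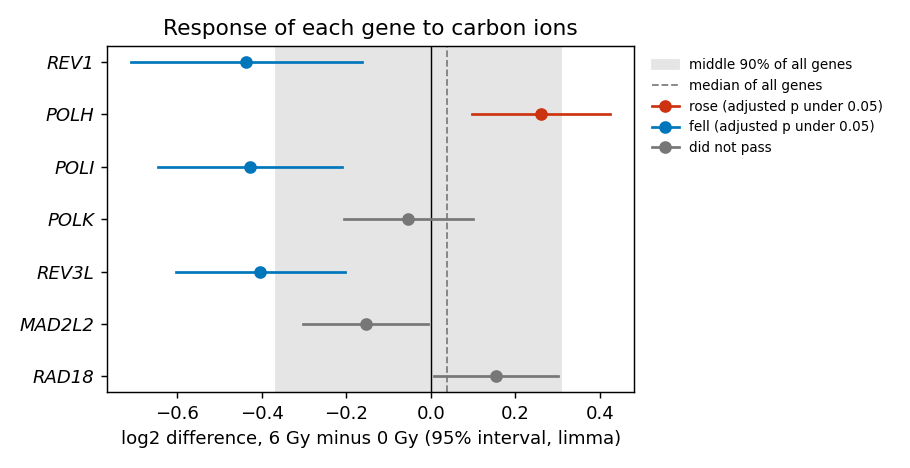
The points give the log2 difference, 6 Gy minus 0 Gy, of each gene with its 95% interval from limma (x axis), coloured by call. The grey band holds the middle 90% of all genes (-0.37 to 0.31) and the dashed line their median (0.04). REV1, POLI and REV3L lie below the band, and POLH lies inside it.

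Without irradiation the 7 probe sets spanned a wide range of signal. Mean log2 intensity was 6.15 ± 0.26 for REV1, 6.93 ± 0.05 for POLK, 7.08 ± 0.17 for REV3L, 7.63 ± 0.05 for POLI, 8.29 ± 0.06 for POLH, 8.85 ± 0.06 for RAD18 and 9.98 ± 0.02 for MAD2L2 (mean ± SD, n = 3). These means lay at the 46.4th percentile of all genes for REV1, at the 56.7th to 81.5th for the next 5 and at the 91.7th for MAD2L2. Probe sets bind unequally and the values are not per length, so this describes brightness and does not order the transcripts by amount. The table holds no detection calls, so whether the dimmest of them, REV1, lies above background is unknown. Its unirradiated mean was above the array medians (5.64 to 5.67 without irradiation). After irradiation its mean was 5.71, beside array medians of 5.66 to 5.72. On irradiated replicate 2 its value (5.57) was below the array median (5.69). The 3 genes that fell were at 46.4 to 65.8 on the percentile scale, and the gene that rose was at 74.6. Set against all genes by size of difference, REV1, POLI and REV3L were at the 94.9th, 94.7th and 94.0th percentile, POLH at the 83.0th and POLK at the 24.4th.

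**Figure D3:**
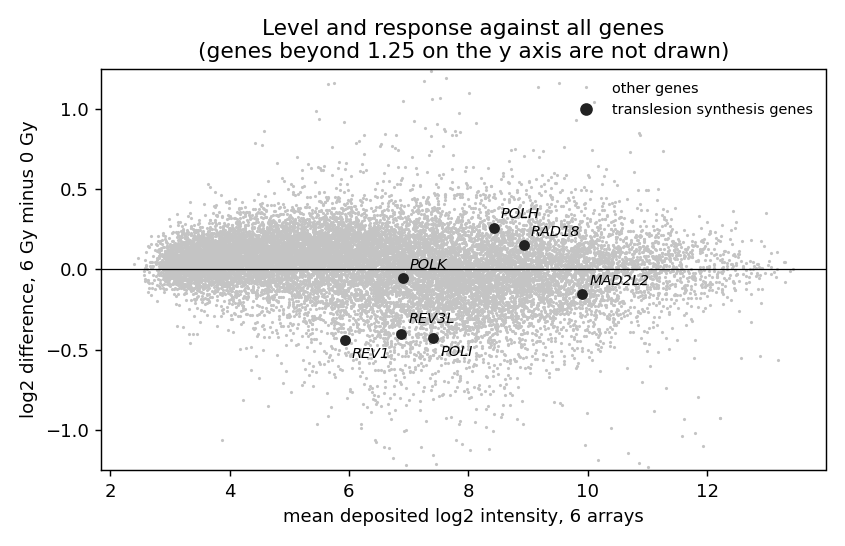
Each grey point is a gene, placed by its mean log2 intensity over the 6 arrays (x axis) and its log2 difference, 6 Gy minus 0 Gy (y axis), and the 7 translesion synthesis genes are black and named. POLI, REV1 and REV3L lie between -0.44 and -0.40 at middling brightness, with many genes further from 0, and MAD2L2, the brightest of the 7, is at -0.15.

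Polymerase zeta works as a complex of REV3L and MAD2L2 with POLD2 and POLD3, accessory subunits that it shares with polymerase delta. POLD3 fell by 0.40 (SE 0.07; limma adjusted p 0.0055), close to the value of REV3L, and was called with each array left out in turn. POLD2 differed by -0.02 (adjusted p 0.862 in limma). The replicative polymerase subunits as a list had 3 that fell, 1 that rose and 8 that did not pass, of 12, with a median of -0.03. PRIM1, the catalytic subunit of primase, fell by 0.46 (limma adjusted p 0.0065) and PRIM2, its large subunit, rose by 0.29 (0.0406), a call that ended with array medians subtracted (0.0569). POLA1, the catalytic subunit of polymerase alpha, fell by 0.26 (limma adjusted p 0.0428) and is named here because its value was seen, and its call ended with quantile normalization (0.0597). Leaving out an array ended the limma call for PRIM2 (any unirradiated array or irradiated replicate 2, adjusted p up to 0.118) and POLA1 (any unirradiated array or irradiated replicate 1 or 3, up to 0.151). The list counted 2 or 3 calls in each of those fits, with 2 without any 1 unirradiated array.

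The PCNA ubiquitin switch covers the enzymes that add or remove ubiquitin on the clamp and the proteins that read it. Among its 14 measured genes 3 fell, 0 rose and 11 gave no call, with a median of -0.02. WDR48, the activating partner of USP1, fell by 0.49 (SE 0.10; limma adjusted p 0.0087), ATAD5, which brings USP1 to the clamp and unloads PCNA, fell by 0.28 (0.0200), and USP1, a protease that removes ubiquitin from PCNA, fell by 0.23 (0.0428). Other genes of the list gave no call and are named for their roles after their values were seen. UBE2A differed by 0.17 (adjusted p 0.126 in limma), UBE2B by -0.20 (0.195), HLTF, a ligase that extends the ubiquitin chain, by 0.28 (0.0558), and USP7, a further ubiquitin protease, by -0.21 (0.0720). PCNA itself differed by -0.28 (limma adjusted p 0.0579). No test compared these genes with one another. The call of WDR48 was kept with each array left out, whereas that of USP1 ended with every one (adjusted p in limma up to 0.137) and with quantile normalization (0.0865), and that of ATAD5 ended without any 1 unirradiated array or irradiated replicate 3 (up to 0.0733). Calls in the list numbered 1 without any 1 unirradiated array, 5, all lower, with array medians subtracted, and 6, of which 1 was higher, with array weights.

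Other specialised polymerases had 2 that fell and 4 that did not pass, of 6, with a median of -0.09. POLM and POLL encode gap-filling polymerases of end joining: POLM fell by 0.37 (limma adjusted p 0.0181) and POLL fell by 0.31 (0.0375). They belong to the X family, whose other members here gave no call and had the opposite sign. POLB, the polymerase of base excision repair, differed by 0.21 (adjusted p 0.0824 in limma) and DNTT, which adds untemplated bases to antigen receptor genes, by 0.18 (0.315). POLQ, the polymerase of microhomology-mediated joining, differed by -0.02. With quantile normalization 2 genes of the list fell and 1 rose. Without an array the limma call ended for POLM (unirradiated replicate 1 or 2, irradiated replicate 1, adjusted p up to 0.0721) and for POLL (any unirradiated array, irradiated replicate 1 or 3, up to 0.134). The list then held 0 calls without unirradiated replicate 1 or 2 or irradiated replicate 1, and 1 without unirradiated replicate 3.

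Fork protection and checkpoint genes, listed with the reprimase gene PRIMPOL, counted 2 that fell and 9 that did not pass, of 11, with a median of 0.04. TIMELESS, part of the complex that travels with the fork, fell by 0.36 (limma adjusted p 0.0138), and the checkpoint kinase gene CHEK1 fell by 0.22 (0.0433). PRIMPOL differed by -0.17 (adjusted p 0.348 in limma) and the apical kinase gene ATR by 0.18 (0.156). The limma call of TIMELESS ended without unirradiated replicate 2 (adjusted p 0.0525) and that of CHEK1 with any array left out (up to 0.120) and with quantile normalization (0.0551), so the list held 0 calls without unirradiated replicate 2 and 1 without each other array. REV7 also binds proteins outside translesion synthesis, and of 7 such partners and neighbours in end protection, RIF1 alone fell (by 0.26; limma adjusted p 0.0459), 0 rose and the median was -0.06. That call ended with any array left out (adjusted p in limma up to 0.134) and with quantile normalization (0.0821). The partners TRIP13, which remodels REV7, and TP53BP1 differed by 0.08 and -0.06.

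The 5 related lists held 14, 11, 6, 12 and 7 measured genes. Together 12 genes were called, 11 of them lower and 1 higher. Over all genes 1507 fell and 1169 rose. The split in the lists was 7 lower and 3 higher with quantile normalization, where 1369 of all genes fell and 1431 rose. It was 14 lower and 0 higher with array medians subtracted, where 1908 of all genes fell and 976 rose. With 1 array left out between 3 and 8 list genes were called. The counts were 4, 3 and 5 without unirradiated replicates 1, 2 and 3 and 6, 8 and 8 without irradiated replicates 1, 2 and 3. The called shares of the lists ran from 14.3% to 33.3%, beside 14.5% of all genes.

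**Figure D4:**
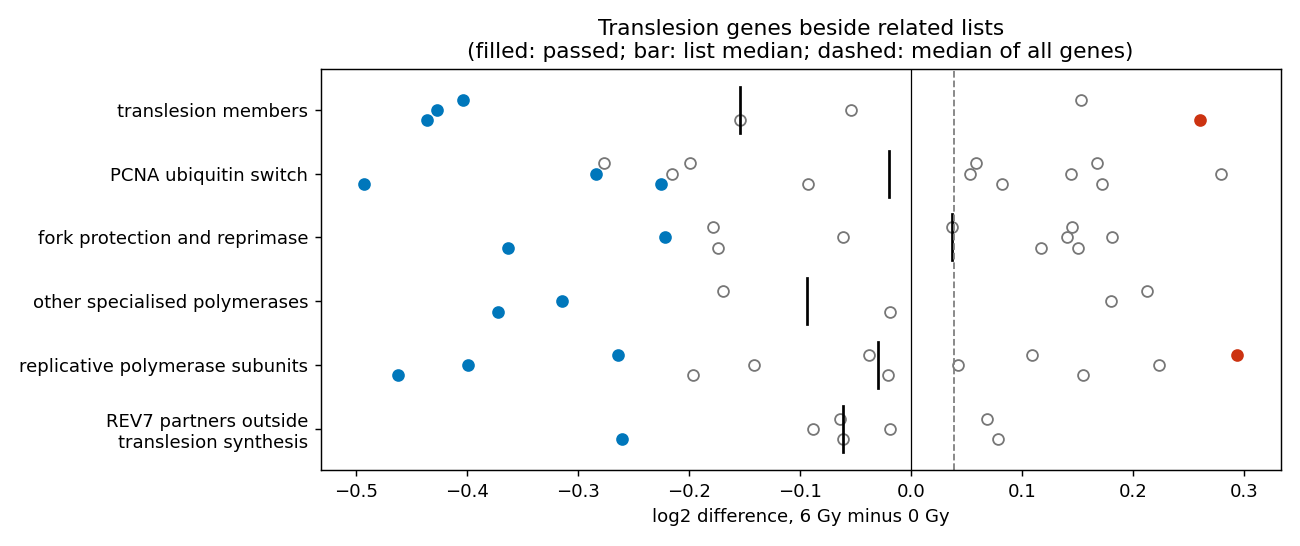
Each point is the log2 difference, 6 Gy minus 0 Gy (x axis), of a gene in the 7 translesion members and the 5 related lists (y axis), filled blue where it fell and red where it rose and open where it did not pass. Black bars are list medians, from -0.15 for the translesion members to 0.04 for fork protection and reprimase, and the dashed line is the median of all genes (0.04).

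Among all genes, those whose array-by-array pattern lay nearest to REV3L, the member with the smallest p, were UQCC3, GLB1 and PSIP1. Nearness is the root mean square difference of the 6 log2 values after each gene's own mean was removed, and it was 0.057 for UQCC3, 0.058 for GLB1 and 0.068 for PSIP1. UQCC3 encodes an assembly factor of respiratory complex III, GLB1 the lysosomal beta-galactosidase and PSIP1 a chromatin-binding coactivator. They were picked for this likeness, so their shared features follow from the choice and are given as a description: each was highest on unirradiated replicate 3, as REV3L was, at 7.36, 9.61 and 8.56. UQCC3 fell by 0.36 on the log2 scale, GLB1 fell by 0.37 and PSIP1 fell by 0.38 (limma adjusted p 0.0274, 0.0134 and 0.0324). The call of GLB1 was kept with each array left out, while those of UQCC3 and PSIP1 ended without unirradiated replicate 1 or 3 or irradiated replicate 1 or 3 (limma adjusted p up to 0.0816 and 0.0827), and that of PSIP1 with quantile normalization (0.0644).

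**Figure D5:**
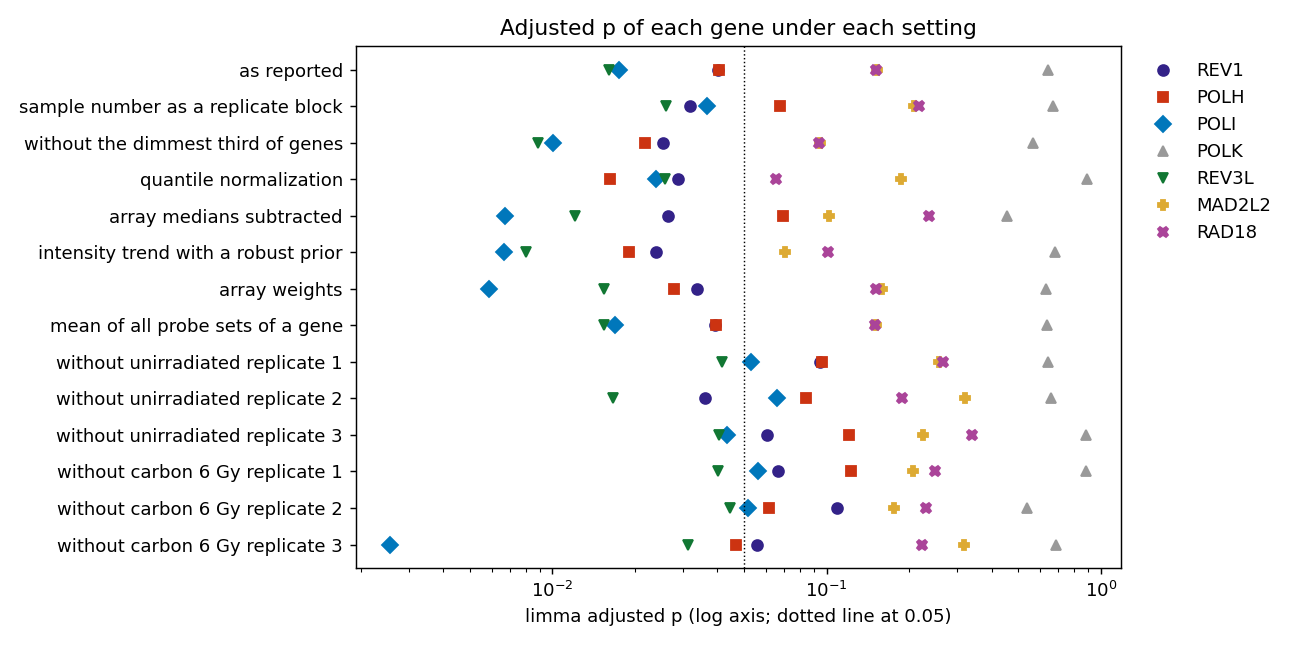
The limma adjusted p (x axis, log scale) of each of the 7 genes is plotted for the reported fit and 13 other settings (y axis), with a dotted line at 0.05. REV3L lies left of the line in every setting, POLI, REV1 and POLH cross it when single arrays are left out, and POLK, MAD2L2 and RAD18 stay right of it.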

How the data were processed

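The deposited table holds the authors' processed value of 33297 probe sets on each of 6 one-colour arrays, 3 per dose. They were taken as log2 intensities, deposited without a stated base, which was inferred from their range. How the authors corrected background and normalized the arrays is not given in the sources used. Scanner files were not used here. If arrays were scaled to one another, a shift shared by all transcripts would be lost. Of the probe sets, 19460 list 1 gene symbol, 1754 several and 12083 none in the platform annotation, and 18389 of 18417 genes matched RefSeq by Entrez ID. Where a gene had several, the probe set with the highest mean over the 6 arrays was used.

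All 18417 genes were fitted with limma 3.58.1 (lmFit, eBayes, 4 residual and 5.85 prior degrees of freedom) in R 4.3.3, as a two-sided test without covariates. The steps were run on simulated data, where recovery was required only of differences larger than those of the 7 genes. Differences near the size of those of the 7 genes were simulated too, but no recovery was required of them and theirs is not given here. The requirement therefore says nothing about calls of the size seen in the 7 genes. An exact permutation test of 3 arrays against 3 cannot give a p under 0.1. The number of arrays limits the precision. Promoter windows and figures used Python 3.11.15, pandas 2.3.3 and matplotlib 3.10.9. The 7 genes, the related lists and the tests were chosen with earlier results of these data known. Named genes were the 7, up to 3 called genes of smallest p per list, and the 3 nearest patterns to the leading gene. POLA1, uncalled list genes, markers and neighbours of promoter windows were named outside this rule, after their values were seen. USP10, ATRIP and SHLD3 had no probe set of their own. Alternatives were a replicate block, leaving out arrays, a filter on dim genes, quantile normalization, median subtraction, a robust trend, array weights, the mean of probe sets, every probe set tested and an adjusted p under 0.01.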

Additional observations from a re-analysis of the deposited data

How the results depend on the processing

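Over 91 refits of the 7 differences, 0 changed sign, but most of these refits could not change it. The replicate block, the filter on dim genes, the robust trend and the mean of probe sets leave each difference as it was. Leaving out an array cannot reverse a gene whose groups do not overlap, as held for 6 of the 7. The mean of probe sets also hardly bears on the calls, because each of the 7 genes has 1 probe set. Of the 49 that kept all 6 arrays, 47 kept their side of the threshold, and the other 2 were those of POLH, which differed by 0.26 with sample number fitted as a replicate block (limma adjusted p 0.0677) and by 0.23 with array medians subtracted (0.0691). At an adjusted p under 0.01 in limma 0 of the 7 and 1077 of all genes were called, although 6 of the 7 had an unadjusted p under 0.05. With 1 array left out, the number called ran from 1 to 3 for the 7 genes, from 1471 to 2184 for all genes (2676 with all arrays; 1584 and 1471 without unirradiated replicates 1 and 2) and from 3 to 8 for the related lists. The differences then ran from 0.21 to 0.29 for POLH, from -0.54 to -0.35 for POLI and from -0.53 to -0.29 for REV1. These fits hold fewer samples. Of the 35 refitted baseline levels, only those with quantile normalization could have moved by 1 SD, and for all 7 genes they stayed within it. Leaving out 1 of 3 arrays cannot move a mean that far. The mean of probe sets changes no level, because each of the 7 genes has 1 probe set.

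The sample numbers were not taken to pair the samples: deviations of same-numbered samples correlated at -0.04, 0.10 and -0.11, and of the unirradiated samples only number 2 correlated best with its own number. The replicate block gave 3 calls among the 7 genes, 8 in the related lists and 1919 over all genes. Under it, USP1, CHEK1, PRIM2, POLA1, RIF1 and PSIP1 also had limma adjusted p values above 0.05 (0.0551 to 0.0896). With no detection calls, signal over background limits the dimmer genes to an unknown degree.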
